A study of Gallus gallus with 24 samples.

Results

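The DT40subNB clones are the spots of a chicken cDNA array whose identifiers begin with that name, and they were taken by that beginning alone: 1798 of the 15769 probes, or 1798 of the 15609 that are not control spots. Of these, 1728 are named by a plate, a row letter and a column, which fills 18 plates of 96 wells, with 216 clones for each of the 8 row letters A to H. The other 70 carry plain numbers between 3 and 76. The deposited table pairs no clone with a gene or a sequence, and 0 of the 1798 identifiers were found in the RefSeq gene table, so clones are described by identifier and no gene is named.

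The arrays compared RNA of chickens of 3 lines, Leghorn (given as G-B1 on 1 array), Fayoumi and broiler, in spleen and in cecum. Each array held material of 3 birds challenged with SE (not spelled out in the labels) at 1 day of age in one channel and of 3 birds without challenge in the other, with tissue taken 2 h or 16 h after challenge. Each of the 12 combinations of a line with a tissue and a time had an array and a second one titled as its replicate, except that the replicate column of broiler cecum at 16 h was left out because it does not hold ratios, which left 23 arrays. The labels give no transgene and no further treatment, and they do not say whether birds were pooled or whether a replicate array held other birds, the same RNA or the same RNA with exchanged dyes. The p-values thus reflect array-to-array spread alone, and that spread may be technical.

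A chicken B-cell lymphoma line much used for gene targeting is called DT40, but the files do not state where these clones come from. The spleen is a secondary lymphoid organ rich in B cells, and the ceca are paired pouches of the hindgut, a main site where enteric bacteria settle in young chicks. A spotted cDNA clone reports the ratio of its matching RNA between the labelled samples of the slide, and clones of 1 transcript, or of transcripts alike in sequence, can share signal. In whole tissue, fewer cells of a type and less RNA per cell cannot be told apart. With no gene names, the labelled tissues could not be checked against marker genes.

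All values are log2 ratios with the sign as deposited, after the median of the 15609 probes was subtracted from each array. With the base of 2, which was inferred, a value of 1 is a ratio of the channels of 2 to 1. Neither the dyes nor which channel is the numerator are given, and arrays of 1 group ran against each other in several groups, so no positive value is read as more RNA in challenged birds. Each comparison was also made with the sign of all replicate arrays turned.

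Taken as a whole, the DT40subNB clones sat off the array centre by an amount that changed sign from array to array. Their median was above 0 on 11 of 23 arrays and ran from -0.63 to 0.69, while the median of all other probes stayed between -0.064 and 0.095. These signs are relative to the array centre, and the library median before centring had the other sign on some arrays, such as -0.78 on the first array of Fayoumi cecum at 16 h and -1.42 on the replicate of Leghorn cecum at 16 h. In Leghorn spleen at 2 h the centred median was 0.20 on the first array and -0.63 on the replicate. In Fayoumi spleen at 2 h it was 0.17 and -0.50, and in broiler spleen at 2 h 0.11 and -0.56. All 3 lines thus had a positive first array and a negative replicate at this time. In spleen at 16 h the medians were -0.20 and 0.03 for Leghorn, -0.23 and 0.16 for Fayoumi, and -0.06 and 0.32 for broiler, the reverse order of signs in each line.

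After centring, the replicate arrays more often kept the sign of the first in cecum than in spleen. Before centring this did not hold. The medians were then -0.61 and 0.57 in Fayoumi and -0.52 and 0.95 in broiler cecum at 2 h. At 16 h they were 0.62 and -1.42 in Leghorn and -0.78 and 1.25 in Fayoumi cecum. The sign was kept in Leghorn cecum at 2 h, Leghorn and broiler spleen at 2 h and broiler spleen at 16 h. At 2 h the centred library median was 0.11 and 0.44 in Leghorn, -0.23 and -0.14 in Fayoumi, and -0.26 and -0.27 in broiler. Both Leghorn arrays were thus positive and the 4 arrays of the other lines negative. At 16 h it was -0.18 and 0.63 in Leghorn, 0.26 and 0.69 in Fayoumi, and -0.00051 on the broiler array. Fayoumi was the line in which both arrays at 16 h were positive.

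Averaged over arrays, the library median was -0.20 ± 0.40 (SD, n = 6 arrays) in spleen at 2 h, 0.0041 ± 0.21 (SD, n = 6) in spleen at 16 h, -0.06 ± 0.28 (SD, n = 6) in cecum at 2 h and 0.28 ± 0.38 (SD, n = 5) in cecum at 16 h. With the sign as deposited, each SD was larger than its mean. With the replicate arrays' sign turned they became 0.36 ± 0.23, -0.17 ± 0.11, -0.068 ± 0.28 and -0.25 ± 0.41 (SD, the same arrays in the same order). The direction in spleen at 2 h, spleen at 16 h and cecum at 16 h was then the opposite, and in spleen both averages exceeded their SD.

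Other spots moved with the library. The Pat and DKFZ426 clones are other named libraries on the slide. Each had a median of the same sign as the DT40subNB median on 21 of 23 arrays. The C00041 clones, which make up 11447 probes, had the opposite sign on 22 of 23. They are most of the probes on which each array was centred. When the other libraries lie on one side of the centre, the centring puts the C00041 median on the other. Their opposite sign is therefore not a separate result. The plant control spots had the opposite sign on 20 of 23 arrays, and their median correlated with the DT40subNB median at r = -0.86 (Spearman's rho -0.89) over the 23 arrays, at -0.96 within the 12 spleen arrays and at -0.89 within the 11 cecum arrays. Without the 2 arrays farthest from the middle of the DT40subNB median, r over all arrays was -0.90. These correlations are descriptions of arrays that share the centring, and their part in the results below was not tested.

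The size of the ratios, which does not depend on their sign, was larger in the DT40subNB clones than in the other probes on 15 of 23 arrays. It was measured from the array centre, so it includes the shift of the library median from that centre. The Pat clones count among the other probes here. The gap was widest in Fayoumi cecum at 16 h, where the median absolute ratio was 0.56 on the first array against 0.31 in the other probes, and 0.74 against 0.46 on the replicate. On those arrays 34.1% and 40.4% of the DT40subNB clones lay beyond 1 on either side of 0, against 10.5% and 18.0% of the other probes. In Leghorn cecum at 16 h the replicate array had 39.7% of the clones beyond 1, against 26.1% of the others, and the first array had 6.01% against 6.35%. The broiler array at that time had 5.78% against 3.85%. Wide ratios in cecum at 16 h were thus found on both Fayoumi arrays and on 1 of 2 Leghorn arrays. In spleen the largest share was 39.7% on the Leghorn 2 h replicate, where the other probes also had 39.7%.

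Whether the arrays of a group ranked the clones alike was read from the correlation over the 1798 clones within each of the 11 pairs, given as a description because clones are not replicates. The correlation was 0.59 in Fayoumi cecum at 16 h, the sole pair above 0.3, and there it was 0.52 over the other probes. It was -0.57 in Fayoumi spleen at 2 h and -0.57 in Fayoumi spleen at 16 h, the pairs below -0.3, in which the arrays order the clones in opposite ways. Over the other probes these 2 pairs had -0.50 and -0.64, so neither the agreement nor the opposite order was particular to the DT40subNB clones. In Leghorn spleen at 2 h it was 0.08 over the DT40subNB clones and -0.44 over the other probes. In Leghorn cecum at 16 h it was -0.21 over the clones and -0.30 over the other probes. In broiler spleen at 2 h it was -0.30 over the clones and -0.60 over the other probes. In cecum at 2 h the 3 pairs lay between 0.03 and 0.14 over the clones and between 0.08 and 0.29 over the other probes.

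Fayoumi cecum at 16 h was the group in which many DT40subNB clones passed the test of a group mean against 0. In limma's fit over all 15609 probes, 185 of 1798 clones (10.3%) had a Benjamini-Hochberg adjusted p below 0.05, all with a positive ratio, against a background of 3.20% of all probes tested. Their mean ratios had a median of 2.08 and ran from 1.19 to 4.09. On the first array their median was 2.21 and no called clone was below 1.04. On the replicate the median was 1.98 and none was below 1.13. Over all clones, called or not, the median group mean was 0.43, against -0.05 for the other probes, and 599 clones (33.3%) had an unadjusted p below 0.05, against 15.5% of all probes.

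The call rested on both Fayoumi arrays running the same way. With the replicate arrays' sign turned, 0 clones were called. Without either of the 2 Fayoumi arrays at 16 h the limma count was also 0. It was 346 without either Leghorn cecum array at 16 h, 120 without either broiler cecum array at 2 h and 116 without either Fayoumi cecum array at 2 h. Arrays of the other groups enter this count through the spread that all groups share in the fit. Over all probes the shares called were 6.91%, 2.01% and 1.88% in these 3 settings, against 19.2%, 6.67% and 6.45% of the clones. On the values as deposited, without centring, 2 clones were called (0.0128% of all probes); the library median was then -0.78 on the first array and 1.25 on the replicate.

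The 5 called clones with the largest means in this group were DT40subNB_1A7, DT40subNB_1F5, DT40subNB_18A7, DT40subNB_11G9 and DT40subNB_1A5. DT40subNB_1A7 had ratios of 4.63 and 3.55 on the Fayoumi arrays, with a mean of 4.09 ± 0.76 (SD, n = 2) and an adjusted p of 0.00718 in limma's fit. On the other 21 arrays it ran from -1.09 to 2.74, with a median of 0.012. Its ratio on the Leghorn cecum 16 h replicate, 2.74, was the highest of those 21, while the first Leghorn array had -0.61 and the broiler array -0.34.

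DT40subNB_1F5 had 4.31 and 3.54, a mean of 3.93 ± 0.55 (SD, n = 2, limma adjusted p = 0.00718). DT40subNB_18A7 had 3.62 and 3.73, a mean of 3.68 ± 0.08 (SD, n = 2, limma adjusted p = 0.00791). DT40subNB_11G9 had 3.37 and 3.74, a mean of 3.55 ± 0.26 (SD, n = 2, limma adjusted p = 0.00718). In all 3 the Fayoumi arrays stood above each of the other 21. DT40subNB_1A5 had 3.39 and 3.13, a mean of 3.26 ± 0.19 (SD, n = 2, limma adjusted p = 0.0130), and a highest value elsewhere of 2.34. For these 5 clones that highest value elsewhere lay between 2.05 and 2.89, each time on the Leghorn cecum 16 h replicate.

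The 185 clones as a set did not carry the same ratio in the other groups. On the Leghorn cecum 16 h replicate their median was 1.28 and 97.3% were above 0, but on the first Leghorn array it was -0.39 and 20.5% were above 0. On the broiler cecum 16 h array it was -0.10. In Fayoumi cecum at 2 h it was -0.25 and -0.34, on the other side of 0 from 16 h on both arrays. The DT40subNB clones that were not called changed sign likewise, with medians of -0.22 and -0.10 at 2 h and 0.14 and 0.53 at 16 h. In spleen the set followed the library: at 2 h its median was 0.21, 0.30 and 0.17 on the first arrays of Leghorn, Fayoumi and broiler and -0.91, -0.83 and -0.86 on the replicates. On the 16 h arrays the broiler spleen replicate stood highest of the spleen arrays, with 0.73. These values describe a set that was chosen by its ratios in Fayoumi cecum at 16 h.

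The difference between times in Fayoumi birds alone was not tested here. The difference averaged over the 3 lines, cecum at 16 h minus cecum at 2 h, gave 0 called clones (background 0.00%) and 209 clones (11.6%) at an unadjusted p below 0.05, against 6.27% of all probes. The median difference was 0.29 over the clones and -0.02 over the other probes. The test of a difference among the 3 lines in cecum at 16 h also called 0 clones (background 0.00%), with 267 (14.8%) at an unadjusted p below 0.05 against 6.69% of all probes. In this fit, a positive call in Fayoumi birds and its lack in another line is not shown to be a difference between lines. Without the Leghorn cecum 16 h replicate, the limma test among lines called 16 clones (0.890%, against 0.288% of all probes). It called 188 clones with the plant spots as a covariate (10.5%, against 4.28% of all probes) and 55 with a replicate block within tissue and time (3.06%, against 1.03%), so the call among lines changed with the setting.

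The mean of the 3 lines in cecum at 16 h called 0 clones in limma's fit (background 0.00%), and 334 clones (18.6%) had an unadjusted p below 0.05 against 8.81% of all probes. Without the first Leghorn array the count was 210 (11.7%, against 4.76% of all probes), and without the broiler array, with that line then missing from the mean, it was 149 (8.29%, against 3.04%). The clones with the smallest p and the same sign on all 5 arrays were DT40subNB_16H5 and DT40subNB_15D11. DT40subNB_16H5 had 0.17 and 2.05 in Leghorn, 2.83 and 2.16 in Fayoumi and 1.71 in broiler birds, and its mean over lines was 1.77 (SE 0.33, n = 5 arrays, limma adjusted p = 0.187). DT40subNB_15D11 had 0.82 and 0.31, 1.50 and 1.45, and 1.63, with a mean of 1.22 (SE 0.24, n = 5 arrays, limma adjusted p = 0.187). Both were positive in every line, and Leghorn had the lowest array in each. With the replicate block within tissue and time both passed (limma adjusted p = 0.000647 for DT40subNB_16H5 and 0.00141 for DT40subNB_15D11). They also passed with the plant spots as a covariate (limma adjusted p = 0.00810 for both). The result for these clones thus changed with the setting.

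In the remaining cecum groups few clones or none passed. Leghorn cecum at 16 h had 1 called clone in limma's fit (background 0.0192%), DT40subNB_7B5. It had ratios of 1.78 and 2.94, a mean of 2.36 ± 0.82 (SD, n = 2, limma adjusted p = 0.0363). On the other 21 arrays it lay between -1.07 and 0.61, so both Leghorn arrays at 16 h stood above all others. The limma call was lost without the Leghorn replicate, and also without 1 array of any spleen group at 16 h, of any cecum group at 2 h or of Fayoumi cecum at 16 h. Without the first Leghorn array 151 clones were called (8.40%, against 4.48% of all probes), DT40subNB_7B5 among them. The call of DT40subNB_7B5 was also lost with the replicate arrays' sign turned, where its mean was -0.58, and with scaled arrays, array weights, values as deposited or each tissue fitted alone. Broiler cecum at 16 h, with 1 array, and the cecum groups at 2 h had 0 called clones (background 0.00% in each). The clones with an unadjusted p below 0.05 at 16 h numbered 152 in Leghorn (8.45%, against 6.75% of all probes) and 45 in broiler birds (2.50%, against 1.92%). At 2 h they numbered 114 in Leghorn (6.34%, against 4.34%), 13 in Fayoumi (0.723%, against 2.22%) and 35 in broiler birds (1.95%, against 2.96%), so the clones were above the background share in Leghorn and below it in the others.

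The mean of the 3 lines in cecum at 2 h called 0 clones (background 0.00%), with 19 at an unadjusted p below 0.05 (1.06%, against 1.96% of all probes), and the test among lines called 0 (background 0.00%), with 58 (3.23%, against 3.14%). DT40subNB_1A11 had the smallest p of the clones of 1 sign on all 6 arrays: -0.07 and -0.31 in Leghorn, -1.36 and -0.89 in Fayoumi, and -0.31 and -0.99 in broiler birds. Its mean was -0.65 (SE 0.24, n = 6 arrays, limma adjusted p = 1.00). DT40subNB_8G12 followed, with a mean of -0.60 (SE 0.23, n = 6 arrays, limma adjusted p = 1.00). Both were positive on the 2 Fayoumi cecum arrays at 16 h, at 2.21 and 1.55 for DT40subNB_1A11 and at 1.60 and 1.08 for DT40subNB_8G12.

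In spleen, Leghorn at 2 h was the group with called clones. In limma's fit 2 clones passed, both positive (0.111%, against a background of 0.250%), a share below the background. An unadjusted p below 0.05 was found for 176 clones (9.79%), against 6.96% of all probes. DT40subNB_3E6 had 2.92 and 2.40 on the Leghorn arrays, a mean of 2.66 ± 0.36 (SD, n = 2, limma adjusted p = 0.00133). On the other 21 arrays it stayed between -0.69 and 0.65, so both Leghorn arrays stood far above the rest. DT40subNB_10F6 had 1.54 and 1.98, a mean of 1.76 ± 0.31 (SD, n = 2, limma adjusted p = 0.0337), with other arrays from -0.94 to 0.82. Both calls ended with scaled arrays (limma adjusted p = 0.138 and 0.677) and with array weights (limma adjusted p = 0.449 and 1.00). With the replicate arrays' sign turned, the mean of DT40subNB_3E6 was 0.26 and that of DT40subNB_10F6 was -0.22, and neither was called. The call of DT40subNB_10F6, unlike that of DT40subNB_3E6, was also lost in 3 other settings. These were values as deposited (limma adjusted p = 0.395), each tissue fitted alone (limma adjusted p = 0.102) and the replicate block within tissue (limma adjusted p = 0.0528). It was lost as well in 7 of the fits with 1 array left out.

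Spleen arrays with the same number deviated from their group means together, so a fit with the replicate number as a block within tissue and time is given beside these counts. With that block Leghorn spleen at 2 h had 70 called clones, 46 positive and 24 negative (3.89%, against 3.56% of all probes). The mean of the lines in spleen at 2 h had 9, 2 positive and 7 negative (0.501%, against 1.43%), and the test among lines had 2 (0.111%, against 0.179%). These shares of the clones lay near the background or below it. With the replicate arrays' sign turned, 68 clones were called in Leghorn spleen at 2 h (3.78%, against 11.5% of all probes), 10 in broiler spleen at 2 h (0.556%, against 3.23%) and 200 for the mean of the lines (11.1%, against 24.1%). Each share was below the background, and the 68 held 0 of the 2 clones called with the sign as deposited. The count in Leghorn spleen at 2 h also changed when 1 of its own arrays was left out. The same held for 1 array of any spleen group at 16 h or of Fayoumi cecum at 2 h. In these fits the share of the clones called was near the share of all probes or below it.

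Without the block, the other 5 spleen groups called 0 clones (background 0.00% in each). An unadjusted p below 0.05 was found at 2 h for 8 clones in Fayoumi (0.445%, against 0.666% of all probes) and 41 in broiler birds (2.28%, against 2.26%). At 16 h it was found for 67 in Leghorn (3.73%, against 3.52%), 0 in Fayoumi (against 0.179%) and 3 in broiler birds (0.167%, against 0.404%). In these groups the clones were near the background share or below it.

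The mean of the lines called 0 clones at 2 h and 0 at 16 h (background 0.00% in each), with 67 (3.73%, against 4.45%) and 11 (0.612%, against 1.08%) at an unadjusted p below 0.05. The test among the lines also called 0 at both times (background 0.00% in each), with 50 (2.78%, against 2.13%) and 9 (0.501%, against 0.698%). The smallest adjusted p among the lines at 2 h was 0.0532 in limma's fit.

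The differences between times and tissues called 0 clones each (background 0.00% in each). Spleen at 16 h minus 2 h had 62 clones at an unadjusted p below 0.05 (3.45%, against 2.90% of all probes), and cecum minus spleen at 2 h had 30 (1.67%, against 1.82%). Cecum minus spleen at 16 h had 133 (7.40%, against 3.01%), the widest margin of these 3. Spleen and cecum slides have number ranges that do not overlap, so tissue and slide range cannot be told apart in these differences.

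For each spleen mean, the 2 clones of smallest p were taken among those with 1 sign on all 6 arrays. Their means were below 1 in size. DT40subNB_9D12 had -0.11 and -0.75 in Leghorn, -0.22 and -0.86 in Fayoumi and -1.12 and -1.14 in broiler spleen at 2 h, a mean of -0.70 (SE 0.17, n = 6 arrays, limma adjusted p = 0.778). DT40subNB_12H4 had a mean of -0.72 (SE 0.18, n = 6 arrays, limma adjusted p = 0.778). At 16 h DT40subNB_11E4 had a mean of -0.42 (SE 0.17) and DT40subNB_1H1 one of -0.45 (SE 0.19), with n = 6 arrays and limma adjusted p = 1.00 for both. The sign shared by every array of the tissue and time, by which these 4 were chosen, was negative in each. Without the block none passed the test. With the replicate block within tissue and time, DT40subNB_9D12 and DT40subNB_12H4 passed (limma adjusted p = 0.0420 and 0.0433). With the replicate arrays' sign turned, their means were 0.22 and 0.057.

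The 6 clones with the widest ratios over all arrays were not among those that passed. The 6 largest by root mean square over the 23 arrays were DT40subNB_4C8 (1.67), DT40subNB_17C2 (1.65), DT40subNB_10F12 (1.63), DT40subNB_15G4 (1.62), DT40subNB_3H7 (1.58) and DT40subNB_15D5 (1.51), against a median of 0.63 over the clones and 0.57 over the other probes. Called clones were wide too, with 1.45 for DT40subNB_1A7 and 1.21 for DT40subNB_1A5. DT40subNB_4C8 had 2.94 and 3.74 in Leghorn spleen at 2 h, and 0.56 and -4.20 in Leghorn spleen at 16 h. The other 5 had between 1.89 and 3.76 on the Leghorn arrays at 2 h and between -4.36 and -3.84 on the 16 h replicate. All 6 were thus strongly positive on both Leghorn spleen arrays at 2 h and strongly negative on 1 of 2 at 16 h.

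Clones with like profiles were found by the uncentred correlation over the 23 arrays, a measure that does not change when an array's sign is turned, with 0.9 taken as alike. The measure keeps the shift from the array centre that clones of a library share on an array. Shares inside and outside the library are therefore not a like comparison, and the part of that shift was not tested. Of the 1798 clones, 864 (48.1%) had another DT40subNB clone at or above that level. The set around DT40subNB_1A7 held 63 clones (3.50% of the library). Of the 13811 probes of other names, 73 (0.529%) were as alike, of which 61 were C00041 clones, 11 Pat and 1 DKFZ426. The nearest were DT40subNB_1F5 (0.98), DT40subNB_18A7 (0.98), DT40subNB_1A5 (0.97), DT40subNB_11G9 (0.96) and DT40subNB_8E5 (0.95). The 63 clones lay on 17 of the 18 plates and in all 8 row letters, with at most 10 on 1 plate. Of them, 56 (88.9%) were among the 185 called in Fayoumi cecum at 16 h, against 10.3% of the library. That overlap follows from the choice of DT40subNB_1A7, which had its largest ratios on those arrays, and is not a separate result.

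The median of these 63 clones was 2.69 and 2.19 on the Fayoumi cecum 16 h arrays, and 2.18 on the Leghorn replicate, where the lowest clone had 1.13. On the first Leghorn array it was -0.26 and on the broiler array -0.27. In spleen at 2 h it was -0.88, -0.86 and -0.90 on the replicates of Leghorn, Fayoumi and broiler and 0.21, 0.38 and 0.30 on the first arrays. The profile was thus widest on 3 cecum arrays at 16 h, those on which DT40subNB_1A7, the clone that defined the set, was itself highest.

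The set around DT40subNB_4C8 held 21 clones, and 0 of the 13811 other probes reached 0.9, the nearest being at 0.86. At a level of 0.8 the set held 60 DT40subNB clones and 4 other probes. The clones nearest to DT40subNB_4C8 were DT40subNB_15D5 (0.97), DT40subNB_10F12 (0.97), DT40subNB_10B11 (0.95), DT40subNB_1F8 (0.94) and DT40subNB_16H3 (0.94). The 21 clones came from 9 plates and 7 row letters, with at most 4 on 1 plate. The sets around DT40subNB_1A7 and DT40subNB_4C8 shared 0 clones.

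The median of the 21 clones was 2.92 and 1.65 in Leghorn spleen at 2 h, and 0.55 and -3.28 in Leghorn spleen at 16 h. In Fayoumi spleen it was -1.46 and 1.23 at 2 h and 1.40 and -0.57 at 16 h, with opposite signs within each pair. In Fayoumi cecum at 16 h it was -2.11 on the first array and 0.01 on the replicate. Leghorn spleen at 2 h was the sole group in which the median was beyond 1 with 1 sign on both arrays, and 0 of these clones were called there or in Fayoumi cecum at 16 h.

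At the other end, DT40subNB_5C4 had the smallest root mean square, 0.19, with ratios from -0.44 to 0.48. DT40subNB_1G10 (0.23) and DT40subNB_6G8 (0.24) followed. No clone had 1 sign on all 23 arrays. The most was 18 arrays of 1 sign, reached by DT40subNB_16C2 and DT40subNB_50, both negative on 18 and positive on 5, and DT40subNB_10G10 was negative on 17. The median clone was positive on 11 arrays.

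The place of a clone in its plate went with its ratio on some arrays. On the Fayoumi cecum 16 h replicate the median was 1.17 for clones of row A and 1.14 for row E, but -0.07 for row D and -0.02 for row H. The rows between ran 1.01 in B, 0.75 in C, 0.63 in F and 0.85 in G. On the Leghorn cecum 16 h replicate rows A to D had 1.04, 0.88, 0.38 and 0.13 and rows E to H 0.91, 0.78, 0.52 and 0.22. On the first Leghorn array the order was the reverse, from -0.51 in A to 0.12 in D and from -0.52 in E to 0.03 in H. The pattern repeated every 4 row letters, and the Pat clones showed it too: the difference of rows A and E minus rows D and H had the same sign in both libraries on 23 of 23 arrays, with r = 0.97 over arrays as a description. The range of the 8 row medians was larger than that of the 18 plate medians on 13 of 23 arrays.

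The 185 clones called in Fayoumi cecum at 16 h numbered 29 in row A, 28 in B, 24 in C, 18 in D, 18 in E, 22 in F, 29 in G and 11 in H, of 216 each. They came from all 18 plates, with between 5 and 15 on a plate, and 6 of the 70 numbered clones were among them. In a further setting each row letter, over the DT40subNB and Pat clones together, was brought to the same median on each array. The C00041 and DKFZ426 clones were treated likewise as another set. The row medians of the DT40subNB clones alone need not be equal after this step, which was chosen after the row medians had been seen. In that setting limma called 221 clones, all positive (12.3%, against 3.97% of all probes), and 183 of them were shared with the 185. The shared clones were 98.9% of the first list and 82.8% of the second. The calls per row then ran from 23 to 35. The call in Fayoumi cecum at 16 h was thus as large with the row letters centred over both libraries, and with the replicate arrays' sign turned as well it was 0.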

How the data were processed

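The deposited probe values of 24 two-colour arrays were the starting point, and 23 arrays entered the fits. The values the authors deposited were taken as log2 ratios because they lie on both sides of 0. Their scanner, dyes, background correction, normalization, log base and direction are not stated in the sources used here. The deposited array medians of the log2 ratios ran from -2.05 to 1.27. The replicate column for broiler cecum at 16 h held other values and was left out.

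Arrays were grouped by their titles. Each was centred on its median over 15609 probes, without 160 control spots (plant genes and chicken genomic DNA); all tested probes had a value on at least 20 arrays. limma 3.58.1 in R 4.3.3 (lmFit, eBayes) fitted 12 group means to 23 arrays, leaving 11 residual degrees of freedom. P-values were two-sided and adjusted by Benjamini-Hochberg over all 15609 probes within each comparison, with a threshold of 0.05. Tables were made with Python 3.11.15, pandas 2.3.3 and numpy 2.4.6. The fit was also run on simulated data with independent noise on each array and known changes in some clones of Fayoumi cecum at 16 h. That run does not cover arrays that deviate together or run against each other, so it does not bear on the calls above. Spots carry no depth; the number of arrays limits precision, and the median 95% interval of a clone's group mean was ± 0.948 with 2 arrays and ± 1.34 with 1.

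Same-numbered spleen arrays deviated together over all probes (r of 0.73 to 0.78 at 2 h and 0.37 to 0.71 at 16 h, every pair above 0.1), and cecum arrays at 2 h did not (-0.05 to 0.20). The pairing comes from the titles, which mark 1 array of each group as a replicate. Each slide has a number of its own, so no slide could be used as a batch. The spleen slides were numbered from 40 to 53 and the cecum slides in use from 1735 to 1789. A difference between tissues thus cannot be told apart from one between these ranges of slides.

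Named clones were, for each comparison, up to 5 per direction with the largest mean past the threshold and 1 sign on all its arrays; the 6 widest and 3 flattest over all arrays; the 2 of smallest p with 1 sign on all arrays for each mean over lines; and the 3 with most arrays of 1 sign. The library, lists and rules were chosen with earlier results of these data known.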

Additional observations from a re-analysis of the deposited data

Results flagged for a closer look

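Within the 6 cecum arrays at 2 h, the Leghorn replicate stood apart from the others in the range of its DT40subNB row medians, 0.625. The gap to the next array was 0.703 of the whole range, above the limit of 0.625 for 6 arrays. These arrays came from 3 lines, and how often chance gives such a gap among them was not tested.

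Among groups that differ in 1 of line, tissue and time, 3 comparisons had a centred DT40subNB median on one side of 0 on both arrays of one group and on the other side on both arrays of the other, with the sign as deposited. Before centring this was not so: the medians of the Fayoumi cecum arrays were then -0.61 and 0.57 at 2 h and -0.78 and 1.25 at 16 h, and those of broiler cecum at 2 h -0.52 and 0.95. The median in cecum at 2 h was 0.458 higher in Leghorn (0.28) than in Fayoumi birds (-0.18), and 0.540 higher in Leghorn than in broiler birds (-0.26). In Fayoumi cecum the value at 2 h minus that at 16 h was -0.652 (-0.18 and 0.47). These differences were not tested, and with 2 arrays against 2 an exact permutation test could not pass the threshold. On the first and replicate arrays the Pat median was -0.029 and 0.83 in Leghorn, -0.48 and -0.17 in Fayoumi and -0.30 and -0.36 in broiler cecum at 2 h, and 0.0061 and 0.86 in Fayoumi cecum at 16 h. The plant control spots had -0.36 and -0.26, 0.33 and 0.46, 0.23 and 0.55, and -0.13 and -0.40 in the same order. Their part was not tested.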

How the results depend on the processing

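With the replicate arrays' sign turned, limma called 68 clones in Leghorn and 10 in broiler spleen at 2 h, 0 in Leghorn and 0 in Fayoumi cecum at 16 h, 200 for the mean of the lines in spleen at 2 h, 327 for spleen at 16 h minus 2 h (18.2%, against 30.5% of all probes) and 68 for cecum minus spleen at 2 h (3.78%, against 11.7%); the library median became 0.36 for 2 h spleen and -0.25 for 16 h cecum. This setting reversed DT40subNB_10F6 (-0.22), DT40subNB_7B5 (-0.58), DT40subNB_18A7 (-0.055), DT40subNB_11G9 (-0.18), DT40subNB_9D12 (0.22), DT40subNB_12H4 (0.057) and DT40subNB_1A11 (0.076).

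On values as deposited 9 clones were called in Leghorn spleen at 2 h (0.501%, against 0.179% of all probes). In cecum at 16 h the count was 0 in Leghorn and 2 in Fayoumi birds (0.111%, against 0.0128%). The library median in spleen at 2 h was 0.42, and the size without sign was 0.49 for 16 h spleen, 0.58 for 2 h cecum and 0.97 for 16 h cecum. In the order of Leghorn spleen at 2 h, Leghorn cecum at 16 h and Fayoumi cecum at 16 h, scaled arrays gave 0, 0 and 294, array weights 0, 0 and 529, and the replicate block within tissue 1, 0 and 121. For Fayoumi cecum at 16 h these were 16.4%, 29.4% and 6.73% of the clones, against 5.54%, 12.4% and 2.00% of all probes. The 1 clone in Leghorn spleen was 0.0556%, against 0.199%. Fitting each tissue alone gave 1 (0.0556%, against 0.0384% of all probes) and 0 in the first and second. Scaled arrays gave 1 in broiler cecum at 16 h (0.0556%, against 0.0833%).

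The replicate block within tissue and time gave 70, 49 and 616 in that order. The 49 and 616 were 2.73% and 34.3% of the clones, against 2.24% and 15.2% of all probes. For the means of the lines it gave 9 in 2 h spleen and 453 in 16 h cecum (25.2%, against 12.3%). It gave 281 for cecum at 16 h minus 2 h (15.6%, against 7.57%) and 30 for cecum minus spleen at 16 h (1.67%, against 0.474%). Among lines it gave 2 for 2 h spleen and 55 for 16 h cecum, and it changed no other count. In cecum at 16 h 1 pair correlated at 0.25. The plant spots as a covariate gave 26 in Leghorn (1.45%, against 1.29% of all probes), 2 in broiler (0.111%, against 0.128%) and 357 in Fayoumi cecum at 16 h (19.9%, against 7.35%). For the means of the lines they gave 1 in 2 h spleen (0.0556%, against 0.0577%) and 33 in 16 h cecum (1.84%, against 0.653%). Among lines they gave 2 in 2 h spleen (0.111%, against 0.205%) and 188 in 16 h cecum (10.5%, against 4.28%). Centred row letters gave 1 among lines in spleen at 2 h (0.0556%, against 0.0256%). Centred row letters with the sign turned, also chosen after the row medians had been seen, gave 40, 0 and 0 in the order above, the 40 being 2.22%, against 5.22% of all probes. This setting gave 213 for the mean of the lines in spleen at 2 h (11.8%, against 22.3% of all probes). It gave 331 for spleen at 16 h minus 2 h (18.4%, against 29.4%) and 62 for cecum minus spleen at 2 h (3.45%, against 7.87%), each below the background. It reversed DT40subNB_10F6 (-0.13), DT40subNB_7B5 (-0.48), DT40subNB_11G9 (-0.097), DT40subNB_9D12 (0.30), DT40subNB_12H4 (0.12), DT40subNB_11E4 (0.011) and DT40subNB_1A11 (0.00034). The cause of these changes was not tested.

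Leaving out 1 array at a time gave 0 to 346 in Fayoumi cecum at 16 h, 0 to 151 in Leghorn cecum at 16 h, 1 to 43 in Leghorn spleen at 2 h, 0 to 1 in Leghorn spleen at 16 h, 0 to 210 for the mean of the lines in cecum at 16 h, 0 to 16 among lines in cecum at 16 h and 0 to 1 in spleen at 2 h, 0 to 4 for cecum at 16 h minus 2 h and 0 to 6 for cecum minus spleen at 16 h; the other counts stayed at 0. A group left with 1 array is assumed to vary like the others. For cecum at 16 h minus 2 h and cecum minus spleen at 16 h, the share of clones called was above that of all probes. In Leghorn spleen at 16 h it was below. Among lines in spleen at 2 h it was below without the broiler spleen 2 h replicate. In the other fits with a call among lines in spleen at 2 h it was above.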

Other observations

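The replicate column for broiler cecum at 16 h, left out of every comparison, held the value 1 for 524 DT40subNB clones and 1.585 for 287, and was blank for 987 (54.9%). The blank share was 77.1% in the Pat clones, 73.8% in the DKFZ426 clones and 27.4% in the C00041 clones. Among the 185 clones called in Fayoumi cecum at 16 h it was 57.8%, and among the other DT40subNB clones 54.6%.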
